A study of Mus musculus with 6 samples.

Results

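The comparison described here set the lung cells of Ccr2KO mice against those of WT mice 28 days after silica aspiration. It used 2 of the 6 arrays of the study, 1 for each genotype, and the 16447 genes whose brightest probe was well above background on at least 1 of them. WT mice were of strain C57BL/6J and Ccr2KO mice of strain B6.129S4-Ccr2tm1Ifc/J, which carries a targeted Ccr2 allele, and the animals were aged 7 to 9 weeks when experiments began. Perfused lungs were digested, red cells and silica were taken out on Percoll, and the CD45-negative fraction was collected with magnetic labels. Each array carried the pooled RNA of 3 biological replicates, so every group is 1 measurement and no spread between animals can be given. The other 4 arrays, an untreated pair (day 0) and a day 40 pair, share no array with the day 28 pair and are used below only to follow the same genes. All 6 arrays lay on 1 slide. The Ccr2KO day 28 array was in its row 1 and the WT day 28 array in its row 2, so at day 28 slide row and genotype cannot be told apart, whereas the untreated pair lay in row 1 and the day 40 pair in row 2.

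CCR2 is the receptor through which monocytes respond to the chemokines CCL2, CCL7 and CCL12, and it is needed for inflammatory monocytes to leave the bone marrow and enter inflamed tissue. Inhaled silica crystals are taken up by lung phagocytes and give a lasting inflammation with nodules and collagen deposition. Mast cells store proteases in their granules, eosinophils store cationic proteins, and neutrophil precursors make the proteins of their primary and secondary granules before the cells mature.

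Values are log2 signals relative to the 75th percentile of the array's signals, and a difference is Ccr2KO minus WT on that scale, so 1 means 2-fold. The only error that the arrays give is that of repeated spots: a probe printed more than once had a median SD of 0.064 on the Ccr2KO array (331 probes) and 0.059 on the WT array (329 probes), and a difference between the 2 arrays had a spread of 0.087 from this source alone. Spots of one array share its RNA, labelling and hybridisation, so this spread is a floor and a difference beyond it is not shown to hold between animals. In bulk RNA, fewer cells of a type and less RNA per cell cannot be told apart. Signals above background made up 61.9% of probes on the WT array and 63.8% on the Ccr2KO array, and no spot was saturated.

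Most genes differed little between the genotypes at day 28. Of the 16447 genes, 96.7% lay within 2-fold and 91.9% within 1.5-fold of each other, and the interquartile range of the differences ran from −0.14 to 0.14. At least 2-fold higher in Ccr2KO cells were 244 genes (1.48%) and at least 2-fold lower were 297 (1.81%). By any amount, 48.1% of genes read higher and 51.9% lower, which is the background for the counts of list members given below. Many of the genes past 2-fold were dim. Among the 15767 genes above background on both arrays, 126 (0.799%) were higher and 119 (0.755%) lower, while the 680 genes above background on 1 of the 2 arrays gave 118 higher and 178 lower. Among the 14920 genes above background on all 6 arrays, 89 (0.597%) were higher and 69 (0.462%) lower. The share of higher genes among those past 2-fold was 45.1% in the main values, 47.1% with quantile normalization and 47.0% with array medians. It was 56.1% with normexp background correction, 56.3% among genes above background on all 6 arrays, 59.6% in the authors' deposited table scaled to its 75th percentile and 25.1% in that table as deposited. In the deposited table without scaling the median of all genes was −0.26, an offset between the 2 arrays that shifts every gene alike. Differences below are given after scaling unless the unscaled table is named. The same 2-fold rule called 363 genes higher (2.21%) and 552 lower (3.36%) in the untreated pair and 776 higher (4.8%) and 260 lower (1.61%) at day 40.

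**Figure D1:**
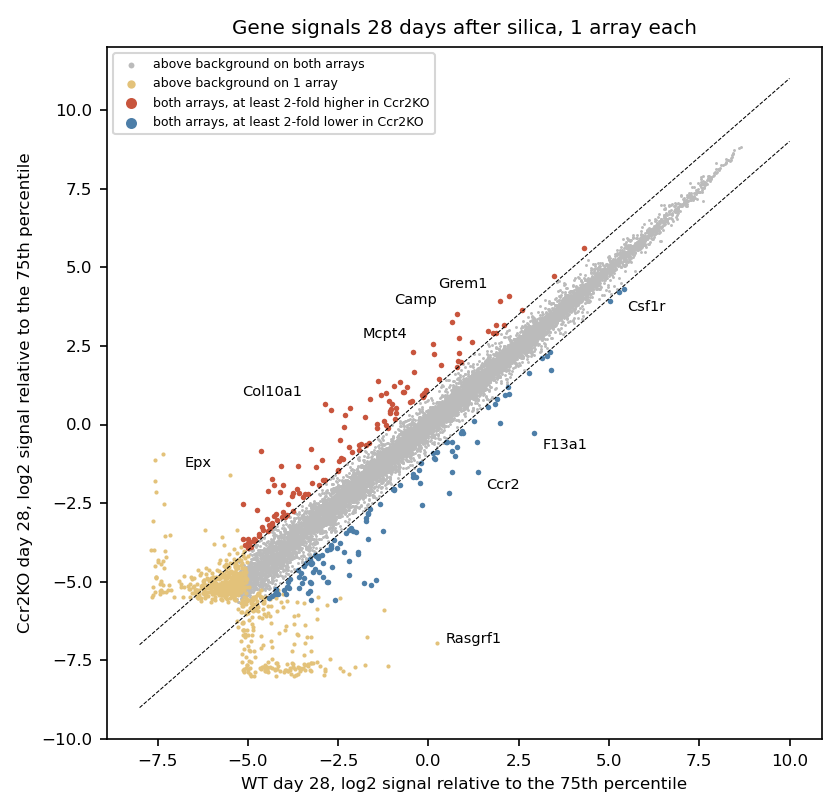
Each point is a gene, placed by its signal on the WT day 28 array (x axis) and the Ccr2KO day 28 array (y axis), both log2 relative to the 75th percentile of the array, with dashed lines at 2-fold. Mcpt4, Camp, Grem1 and Col10a1 lie above the upper line, Ccr2 and F13a1 below the lower one, and the largest distances from the lines are among genes above background on 1 array.

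Ccr2, the targeted gene, read 1.38 on the WT and −1.51 on the Ccr2KO array, 7.39-fold lower in the knockout (difference −2.89). The untreated pair read 0.09 and −5.07 and the day 40 pair −1.70 and −3.64, in the same order. Ccr2 was therefore lower in the knockout on every day, but its signal was above background on all 3 Ccr2KO arrays, and the Ccr2KO day 28 signal was slightly above that of WT at day 40. No source used here says where the probe lies relative to the targeted sequence. Of the 15 genes on either side of Ccr2 in the RefSeq gene order, 24 were listed and 12 were measured. Among these, 9 lay within 2-fold at day 28, including the chemokine receptor genes Ccr9 (−0.67), Ccr1 (−0.33) and Cxcr6 (0.47). The eosinophil chemokine receptor gene Ccr3, next to Ccr2, was 2.29-fold lower (−1.19), the uncharacterised 2010315B03Rik was higher (1.77), and Nlrp4g was at least 2.23-fold lower, with no signal above background in the knockout. Ccr3 was also lower in untreated Ccr2KO cells (−1.32) and read −0.06 at day 40.

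Genes of mast cells, basophils and eosinophils stood highest of the 54 lists described. Of 16 listed genes 14 were measured, 10 were at least 2-fold higher in Ccr2KO cells and none was at least 2-fold lower, with a median difference of 1.97 beside −0.01 over all genes. Their mean level was −1.03 on the WT and 0.47 on the Ccr2KO array. The authors' deposited table holds 9 of these genes, and scaled to its 75th percentile it gave a median of 1.29 with 6 at least 2-fold higher, or 1.01 with 5 unscaled. Among the mast cell proteases, Mcpt4, a chymase of connective tissue mast cells, read 0.13 in WT and 2.55 in Ccr2KO cells, a 5.37-fold difference. Mcpt1, a protease of mucosal mast cells, read −1.63 in WT and 0.80 in the knockout, and Mcpt2, its close relative, −1.18 and 0.99. The chymase gene Cma1 read −1.77 and 0.23, and Cpa3, the mast cell carboxypeptidase, −0.41 and 1.67 (4.24-fold). Tpsb2, a tryptase, differed less by its brighter probe (1.12) than by its second one (2.68). These proteases were thus all higher in the knockout, but the Mcpt genes and Cma1 are close relatives, and how much of each signal comes from a neighbouring family member is uncertain.

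The remaining members of the list pointed the same way only in part. Fcer1a, the alpha chain of the high-affinity IgE receptor, read −2.44 in WT and −0.48 in Ccr2KO cells (1.95), and the basophil protease gene Mcpt8 read −2.13 and −0.87 (1.26). Of the eosinophil granule genes, Prg2, or major basic protein, read −0.96 and 1.22 (4.54-fold). Epx, the eosinophil peroxidase, was above background only in the knockout and was at least 14.6-fold higher, taking the WT array at its own signal. Tph1, a tryptophan hydroxylase that mast cells also use, was 6.72-fold higher (−4.07 and −1.32). In contrast, Kit, the stem cell factor receptor, read 2.06 and 2.37, and Hdc, the histamine-forming enzyme, read 4.62 on both arrays. Kit is also in the list of alveolar capillary endothelium, so its signal need not come from mast cells. Il5ra (−0.20) and Gata1 (−0.62) were not higher, and Ms4a2 and Tpsab1 were not measured. Outside the list, the eosinophil chemokine receptor gene Ccr3, described above, was 2.29-fold lower (−1.33 and −2.52).

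On the arrays that did not enter the day 28 comparison, these genes went both ways before silica and were mostly higher in the knockout later. In the untreated pair 2 of 12 measured members were at least 2-fold higher and 4 at least 2-fold lower, with a median of −0.01, and at day 40 the median was 1.61, with 8 of 14 higher and none lower. Cpa3 read −2.76 in WT and −2.26 in Ccr2KO untreated cells, and −0.86 and 1.04 at day 40. For Mcpt4 the untreated order was the opposite one, −1.58 in WT and −2.61 in Ccr2KO cells, before −0.79 and 1.56 at day 40. Prg2 was already higher in untreated Ccr2KO cells (−1.69) than in WT, where it was not above background. Il5, the eosinophil growth factor, was above background only on the 2 day 28 arrays and was 2.29-fold higher in the knockout, whereas Ccl24, an eosinophil chemoattractant, was 3.26-fold lower. Both were dim.

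**Figure D2:**
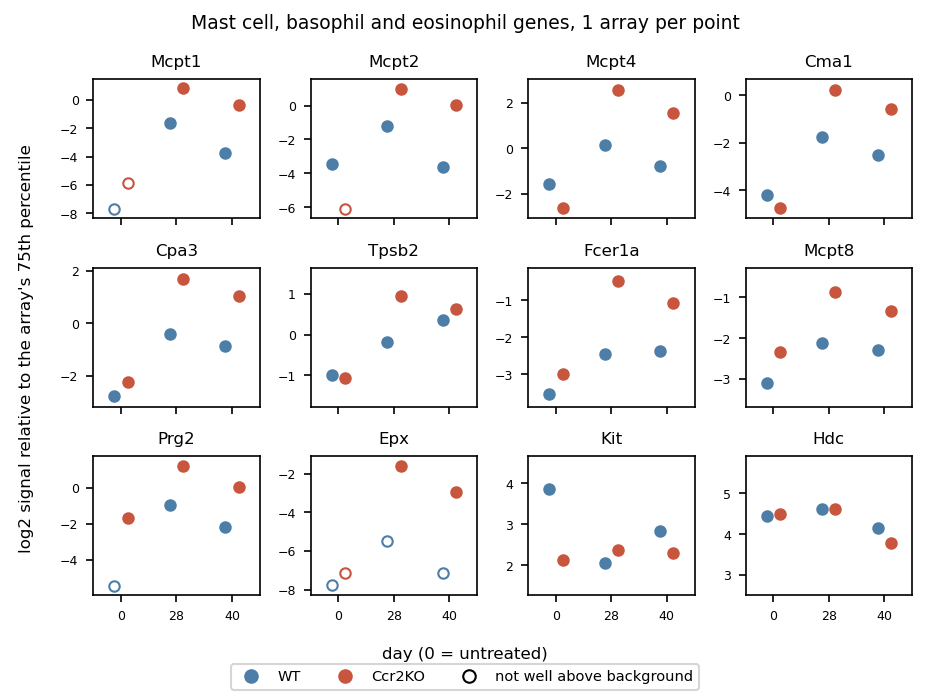
Signals of 12 mast cell, basophil and eosinophil genes on the 6 arrays (y axis, log2 relative to the 75th percentile, scaled per gene; x axis, day), with WT in blue, Ccr2KO in red and open circles for signals not well above background. At day 28 the first 10 genes are higher in Ccr2KO cells, while Kit (2.06 and 2.37) and Hdc (4.62 on both) lie close together.

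The DNA before the start sites of the list members past 2-fold was read for the GATA motif. GATA1 and GATA2, regulators of mast cells and eosinophils, bind to it. RefSeq promoters of build GRCm38.p6 were listed for 7 of the 10 genes past 2-fold. The motif was searched on both strands in the 250 bases before the start in 4 spellings, AGATAA, the same with G as its last letter, and both of these with T as their first letter. No matches overlapped. The motif was found in 5 of the 7, in Cpa3, Mcpt1, Mcpt4, Cma1 and Fcer1a, against 26.5% of 32851 promoters of the same length. A first search for AGATAA alone found 2 of the 7 against 9.99% of promoters, and the wider spelling was taken after that result. Mcpt8 and Epx held no match in this window. The matches lay 46, 99, 103, 79 and 92 bases before the start, in the order of the gene names above. The 120 bases before each of these starts are printed, 5′ to 3′ on the gene's own strand, with the match in capitals. In Cma1 and Fcer1a the match is on the other strand, where AGATAA reads TTATCT.
Cpa3: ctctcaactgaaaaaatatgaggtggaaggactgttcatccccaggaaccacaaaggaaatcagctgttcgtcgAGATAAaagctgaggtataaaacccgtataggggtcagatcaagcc
Mcpt1: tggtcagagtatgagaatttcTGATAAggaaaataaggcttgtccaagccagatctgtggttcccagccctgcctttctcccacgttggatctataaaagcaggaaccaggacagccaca
Mcpt4: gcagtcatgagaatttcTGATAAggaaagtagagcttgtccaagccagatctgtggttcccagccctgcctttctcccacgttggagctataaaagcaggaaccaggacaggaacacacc
Cma1: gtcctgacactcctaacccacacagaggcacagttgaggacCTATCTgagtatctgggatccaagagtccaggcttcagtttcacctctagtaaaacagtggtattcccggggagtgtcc
Fcer1a: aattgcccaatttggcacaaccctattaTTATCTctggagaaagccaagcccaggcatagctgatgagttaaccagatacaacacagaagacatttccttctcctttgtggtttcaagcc
The stretches are chr3:20242182-20242301, minus strand for Cpa3, chr14:56017844-56017963, plus strand for Mcpt1, chr14:56062311-56062430, minus strand for Mcpt4, chr14:55944676-55944795, minus strand for Cma1 and chr1:173227230-173227349, minus strand for Fcer1a. Mcpt1 and Mcpt4 share an unbroken run of 53 bases here, so their 2 matches are not independent of each other. A match is a string of letters, and binding was not measured. The 7 genes come from a list of mast cell, basophil and eosinophil genes, and no count is given for its members that were not past 2-fold. The matches therefore cannot be tied to the day 28 difference, and a part of the motif in it was not tested.

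Some neutrophil genes, among them granule and stefin genes, were higher in Ccr2KO cells, and the others lay within 2-fold. Of 21 listed genes 19 were measured, 7 were at least 2-fold higher, none was at least 2-fold lower, and the median was 0.43. Camp, the cathelicidin of secondary granules, read 0.78 in WT and 3.51 in Ccr2KO cells (6.6-fold), and its second probe gave 2.53. Ngp, neutrophilic granule protein, read −0.43 and 2.30 (6.65-fold), and Mpo, the myeloperoxidase of primary granules, −0.78 and 1.36 (4.41-fold). The 4 stefin genes Stfa3 (2.78), Stfa1 (2.60), Stfa2 (1.31) and Stfa2l1 (1.05), cysteine protease inhibitors of immature myeloid cells, were the others, and they are close paralogues whose signals may mix. By contrast, the calprotectin genes S100a8 (6.53 and 6.96) and S100a9 (7.54 and 7.87) differed by 0.43 or less. The same held for the chemokine receptor Cxcr2 (0.02 and 0.18). The G-CSF receptor Csf3r differed by 0.03, but it read 6.49 to 7.16 on all 6 arrays and was highest in untreated WT cells. In WT cells Cxcr2 rose from −2.25 untreated to 0.02 at day 28, so the Csf3r signal did not follow that of Cxcr2. The 4 members that read lower in the knockout were Clec4e (−0.84), Retnlg (−0.36), Trem1 (−0.20) and Il1r2 (−0.07). The granule genes Ltf (0.97), Elane (0.56), Mmp9 (0.42) and Mmp8 (0.32) also lay within 2-fold. Outside the list, and chosen after its values were seen, the primary granule protease gene Ctsg differed by 1.67, Prtn3 by 1.16 and the precursor gene Ms4a3 by 2.29.

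Camp, Ngp and Mpo were also higher in Ccr2KO cells in the other pairs. Camp read −1.95 in WT and −0.80 in Ccr2KO untreated cells and −0.75 and 1.22 at day 40. Ngp read −4.68 and −2.28 untreated and −2.61 and −0.19 at day 40, and Mpo −4.92 and −2.53 and −1.98 and −0.28. For these 3 genes both genotypes were highest at day 28, and the knockout was higher at each time. Elane instead differed by 0.05 untreated and by −0.86 at day 40. The list median was 0.53 untreated and 0.75 at day 40. Cxcl5, a chemokine for neutrophils made by epithelium, was 2.37-fold higher at day 28 (3.47 and 4.72), while the median of the neutrophil chemokine and growth factor list was 0.03.

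Most monocyte genes were lower in Ccr2KO cells at day 28. Of 24 listed genes 22 were measured, 18 read lower, 4 were at least 2-fold lower and none was at least 2-fold higher, with a median of −0.27. That median was not particular to monocyte genes. The pan-leukocyte (−0.41), dendritic cell (−0.31) and MHC class II (−0.28) lists had medians at least as low. Those of B and plasma cells (−0.16), alveolar macrophages (0.02) and T and NK cells (0.07) stood above it. The 4 genes at least 2-fold lower include Ccr2 itself (−2.89), which as the targeted gene is no evidence about the other monocyte genes. For Ccr2, an effect of the targeted allele and fewer cells that express the gene cannot be told apart. F13a1, the clotting factor XIII subunit made by monocytes, read 2.93 in WT and −0.26 in Ccr2KO cells, 9.12-fold lower, and a second probe gave −3.85. It was lower by 2.75 in the untreated pair and by 1.68 at day 40. Csf1r, the receptor for the macrophage growth factor CSF1, read 5.29 and 4.20 (−1.08), with −1.04 and −0.29 from 2 other probes, and the fractalkine receptor gene Cx3cr1 1.66 and 0.56 (−1.10), with −0.93 and −1.01 from 2 others. Fcgr1 (−0.99) and the macrophage adhesion receptor gene Adgre1 (−0.96) lay just inside 2-fold. Genes of settled macrophages differed less, with C1qa at −0.26, C1qb at −0.25 and C1qc at −0.14, and Arg1 differed by 0.41. The monocyte list did not keep one direction over time. Its median was −0.50 in the untreated pair and 0.18 at day 40, when 5 members were at least 2-fold higher in the knockout, Chil3 (2.40), Gpnmb (1.48), Trem2 (1.18), C1qc (1.09) and Ms4a7 (1.01), and 2 at least 2-fold lower.

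Other myeloid genes, not in the lists, were among the largest decreases of genes above background on all 6 arrays. Clec4a1 and Clec4a3, C-type lectin receptors of myeloid cells, were 3.81-fold and 3.37-fold lower. Ms4a6c read 1.34 in WT and −0.55 in Ccr2KO cells, and Adgre4, an adhesion receptor of macrophages, 0.80 and −0.72. Ptpro, a receptor tyrosine phosphatase that macrophages express, was 4.45-fold lower. All 5 were lower in the untreated and day 40 pairs too, from −1.92 for Clec4a1 to −2.66 for Ms4a6c untreated, and from −0.70 for Ms4a6c to −1.58 for Adgre4 at day 40.

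The cells were sorted as CD45-negative, yet Ptprc, the gene for CD45, was well above background on all 6 arrays and read 2.62 in WT and 2.14 in Ccr2KO cells at day 28. All 12 pan-leukocyte genes were lower in the knockout at day 28, with a median of −0.41 and none past 2-fold. The median was −0.82 in the untreated pair, with 4 of 12 at least 2-fold lower, and −0.47 at day 40. Their mean level at day 28 was 3.38 in WT and 3.01 in Ccr2KO cells, higher than on the other 4 arrays (0.81 to 2.18). The part that leukocytes left in the preparation have in the mast cell, neutrophil and monocyte results was not tested. The leukocyte lists did not move one way. The 12 genes of MHC class II presentation were all lower (median −0.28). The dendritic cell list had a median of −0.31, with 7 of 10 genes lower and 1 past 2-fold, Cd209a (−1.24, second probe −1.49), while the T and NK cell list had a median of 0.07 and no member past 2-fold. The B and plasma cell list had a median of −0.16, with 10 of 14 genes lower and 2 past 2-fold. Of these, Jchain, which joins polymeric antibodies, read 5.41 in WT and 4.32 in Ccr2KO cells, and Tnfrsf17, the plasma cell receptor BCMA, −2.70 and −3.87. The alveolar macrophage list had a median of 0.02 at day 28, beside −1.57 untreated, with 8 of 14 at least 2-fold lower, and 0.47 at day 40. At day 28 its member Marco, a scavenger receptor for particles, was 2.79-fold higher (−1.06 and 0.42) and Mrc1, the mannose receptor, read −0.23 and 0.67. Erythroid genes had a day 28 median of −0.60, led by the globin genes, with none of 8 past 2-fold, and all 8 were above background on both arrays.

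**Figure D3:**
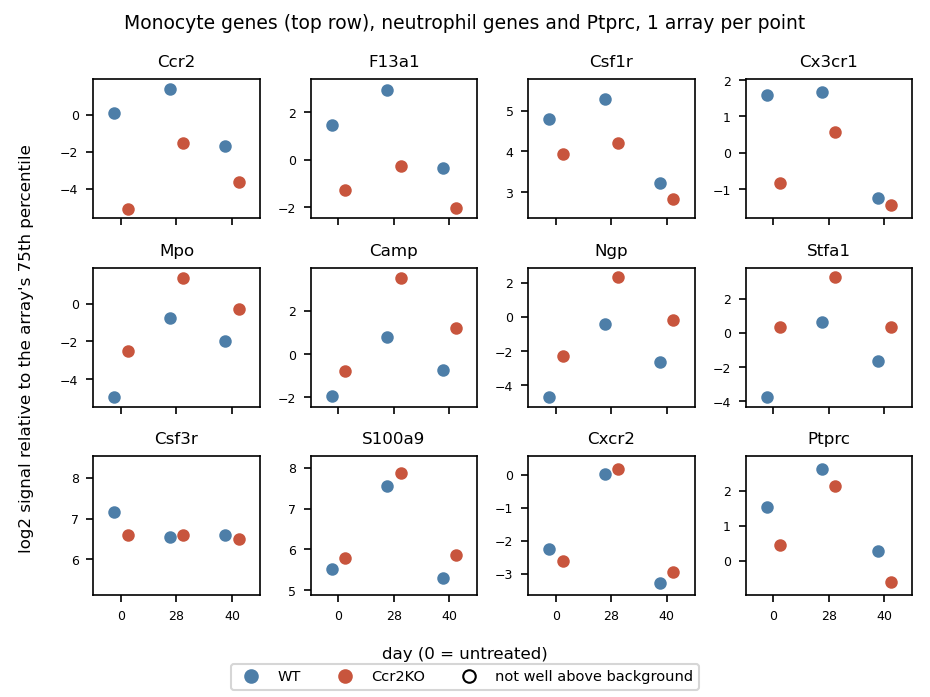
Signals of 4 monocyte genes (top row), 7 neutrophil genes and Ptprc on the 6 arrays (y axis, log2 relative to the 75th percentile, scaled per gene; x axis, day), with WT in blue and Ccr2KO in red. Ccr2, F13a1, Csf1r and Cx3cr1 are lower in Ccr2KO cells on each day, Mpo, Camp, Ngp and Stfa1 higher on each day, and S100a9 and Cxcr2 lie close together at day 28.

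Among the ligands, the chemokines that act on CCR2 were higher in Ccr2KO cells by less than 2-fold at day 28. Ccl2 read 4.41 in WT and 5.23 in Ccr2KO cells (0.82), Ccl7 3.09 and 3.76 (0.67) and Ccl12 −1.66 and −1.36 (0.30). In the untreated pair they were past 2-fold, by 1.80, 2.20 and 1.16, and at day 40 they differed by 1.38, 1.19 and 0.56. Ccl8, a related chemokine, was 3.77-fold higher, at 0.85 in WT and 2.76 in Ccr2KO cells, after −1.76 and −1.16 untreated and before 0.70 and 4.17 at day 40. Ccl9, a ligand of CCR1, was 2.06-fold lower (3.15 and 2.10). Of the 12 genes of the monocyte chemoattractant list, 9 read higher, and the median was 0.27. Of 21 chemokine receptor genes measured, 3 were at least 2-fold lower, Ccr2, Ccr3 and Cx3cr1, and none was at least 2-fold higher. Cxcl9, a chemokine induced by interferon gamma, was 2.92-fold higher (0.33 and 1.88), with 1.47 from a second probe. The rest of the interferon gamma list stayed within 2-fold, with 19 of 22 genes higher and a median of 0.33, while the type I interferon list had 11 higher and 11 lower.

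Markers of activated fibroblasts were higher in Ccr2KO cells. All 19 measured read higher, 3 of them at least 2-fold, with a median of 0.41. The same sign held for all 19 with normexp, quantile and median scaling and for 18 of 18 in the authors' deposited table scaled to its 75th percentile. Unscaled, with the offset between arrays left in, it held for 15 of 18. Grem1, a secreted BMP antagonist, read 2.24 in WT and 4.07 in Ccr2KO cells, 3.55-fold higher. Thbs2, a matricellular protein, read 0.86 and 2.27 (2.67-fold), and Lrrc15, a surface protein of myofibroblasts, −1.41 and 0.02 (2.7-fold). Postn, periostin, read 3.60 and 4.58 (0.97). Before silica Grem1 (−4.73 and −4.67) and Postn (2.52 and 2.58) were level, and at day 40 Grem1 read 2.76 and 4.86 and Thbs2 1.30 and 2.79. The list medians in the untreated and day 40 pairs were 0.38 and 0.75.

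The collagen genes past 2-fold were not those of collagens I and III, the main fibrillar types. Of 25 measured, 4 were at least 2-fold higher, none lower, and the median was 0.32. Col10a1, a collagen of hypertrophic cartilage, read −2.86 in WT and 0.64 in Ccr2KO cells (11.3-fold), and Col11a1, a minor fibrillar collagen, −3.25 and −0.77 (5.57-fold). Neither was above background in untreated cells, and both were higher in the knockout at day 40 (2.59 and 2.56). Col8a1 differed by 1.13 and Col7a1, which makes the anchoring fibrils below epithelia, by 1.12. Col1a1 read 6.83 and 7.04, Col3a1 7.15 and 7.23 and fibronectin Fn1 7.36 and 7.56, differences of 0.21 or less, while Col1a2 read 7.96 and 8.31 (0.35). The list median stood 0.33 above that of all genes, and 0.22 above it in the authors' deposited table, scaled or not, although the unscaled median itself was −0.04 because of the offset between arrays. Ctsk, a collagen-degrading cathepsin, read 4.31 and 5.62 (2.47-fold), in a protease and inhibitor list whose median was 0.25. The Wnt ligand gene Wnt10a (1.44) and the Wnt inhibitor Dkk2 (1.27) were also higher.

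Resident fibroblast genes leaned the other way, with 15 of 20 lower, a median of −0.34 and none past 2-fold. Npnt, a matrix ligand of alveolar fibroblasts and epithelium, read 1.61 in WT and 0.65 in Ccr2KO cells (−0.96), and Tcf21, a transcription factor of lung fibroblasts, 1.23 and 0.51 (−0.72). In the untreated pair the list had a median of 0.37, and at day 40 of −0.06. The contractile gene Acta2 read 5.66 and 6.03, the metalloproteinase inhibitor Timp1 differed by 0.20, osteopontin Spp1 by 0.32 and the acute phase gene Saa3 by 0.44.

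**Figure D4:**
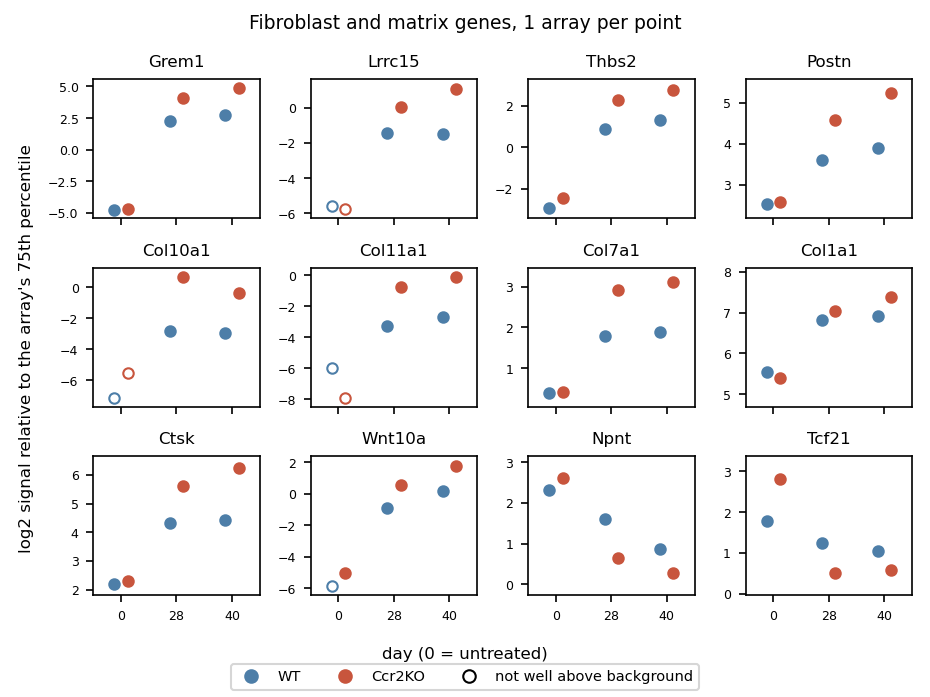
Signals of 12 fibroblast and matrix genes on the 6 arrays (y axis, log2 relative to the 75th percentile, scaled per gene; x axis, day), with WT in blue, Ccr2KO in red and open circles for signals not well above background. Grem1, Thbs2, Col10a1, Col11a1 and Ctsk are higher in Ccr2KO cells at days 28 and 40, Col1a1 differs by 0.21 at day 28, and Npnt is lower in Ccr2KO cells at both.

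No epithelial or endothelial marker named here was past 2-fold, except Krt5. The surfactant gene Sftpc differed by 0.14, the type 1 cell gene Ager by −0.04, the club cell gene Scgb1a1 by 0.11 and the endothelial gene Pecam1 by 0.09. No member of the type 1, type 2, club, ciliated or pan-endothelial lists was past 2-fold, and their medians were −0.13, −0.19, 0.15, 0.25 and 0.03. The alveolar capillary list had a median of −0.26 with 10 of 14 genes lower, among them the ligand gene Apln (−0.72) and the endothelin receptor gene Ednrb (−0.61). The lymphatic list had a median of 0.30 with 8 of 11 higher, led by the transcription factor gene Prox1 (0.90), and neither list had a member past 2-fold. Of the type 2 cell genes 15 of 17 were lower, with 13 of 17 after centring on array medians. Krt5, the keratin of airway basal cells, was 2.17-fold higher (−0.13 and 0.99), with 1.67 from a second probe, and read 0.37 and 2.65 at day 40. Of 14 genes of the heart muscle that sheathes pulmonary veins, 3 were at least 2-fold lower: Actc1, cardiac actin, read 3.39 and 1.74, Myh7, a myosin heavy chain, 0.93 and −0.21, and Sln, sarcolipin, −3.94 and −5.38.

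The proliferation genes were slightly higher together, with 32 of 34 above WT and a median of 0.25. Their only member past 2-fold, the mitotic kinase gene Ttk, was dim and above background only in the knockout (at least 2.51-fold). The list median stood 0.26 above that of all genes, and 0.27 above it in the authors' deposited table, scaled or not. Cdkn2a, which encodes the cell cycle inhibitor p16INK4a and ARF, was 4.74-fold higher (−1.32 and 0.92, with 2.26 from a second probe), while 13 of the 16 genes of the p53 and senescence list it belongs to read lower, among them Cdkn1a at −0.54 and Gdf15 at −0.96. Cdkn2a was higher in the untreated (1.58) and day 40 (2.07) pairs too. C7, a terminal complement component, was 2.05-fold lower.

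**Figure D5:**
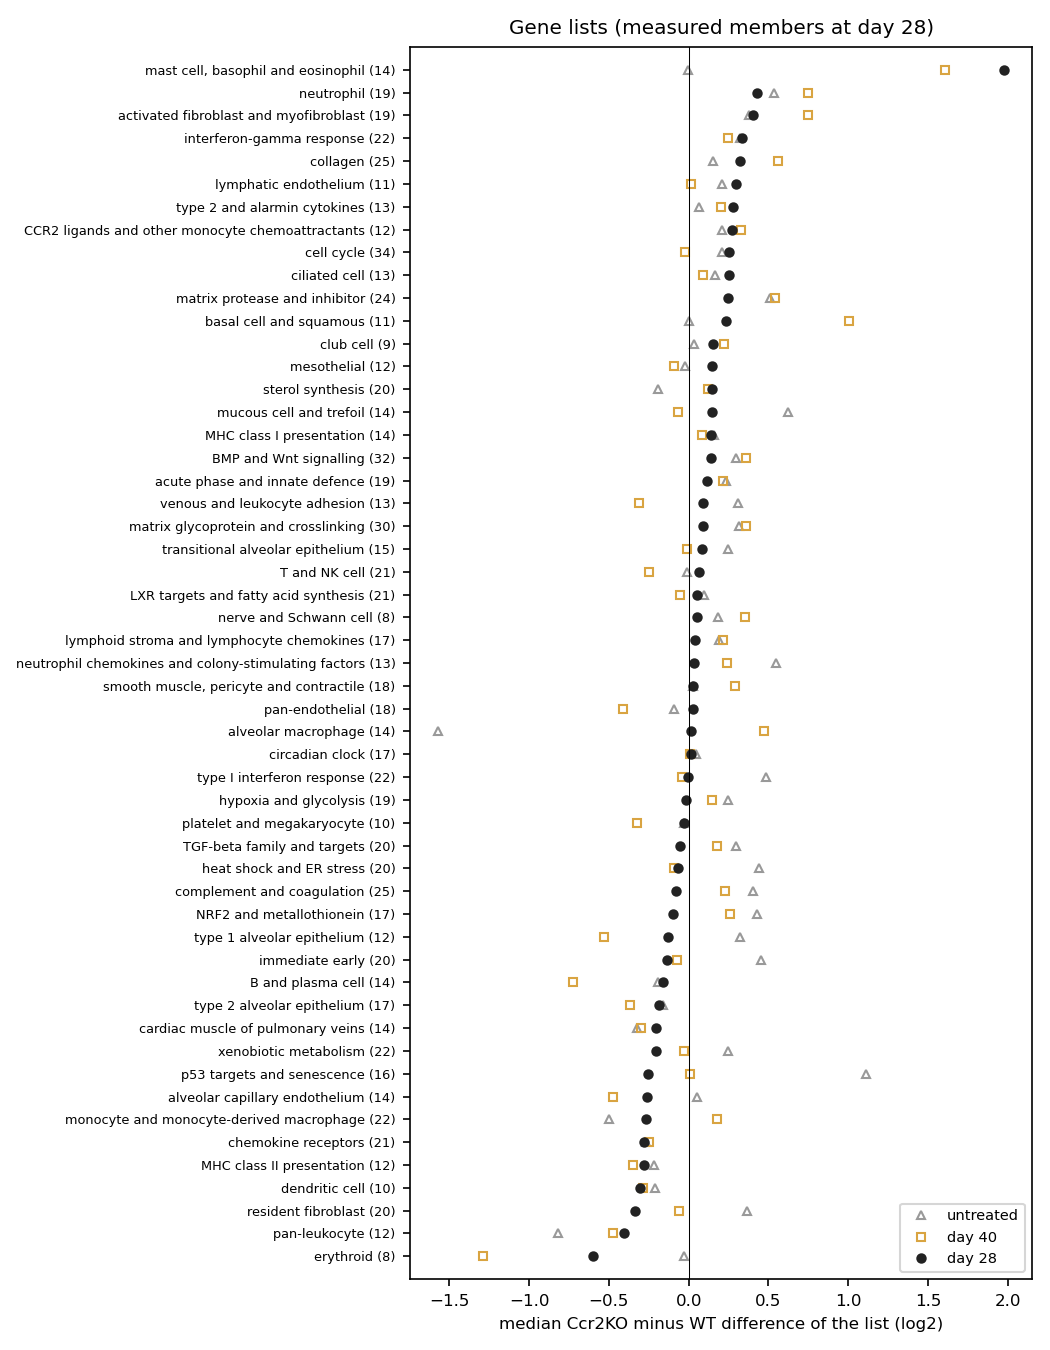
Median Ccr2KO minus WT difference (x axis, log2) of each of 53 gene lists (y axis, with the number of members measured at day 28; the sex-linked list is left out), for the day 28 pair (filled circles), the untreated pair (triangles) and the day 40 pair (squares). At day 28 the mast cell list stands at 1.97, the neutrophil list next at 0.43, and the erythroid and pan-leukocyte lists lowest at −0.60 and −0.41.

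Of genes above background on all 6 arrays, those past 2-fold at day 28 could be followed in both other pairs. Of the 89 higher genes, 46 were at least 2-fold higher at day 40 (51.7%, where 1.51% of the 14920 genes were). Untreated, 18 were at least 2-fold higher (20.2%, where 1.45% were). Of the 69 lower genes, 16 were at least 2-fold lower at day 40 (23.2%, where 0.737% were) and 26 untreated (37.7%, where 1.61% were). Shares past 2-fold in the opposite direction were also above those of all genes. Of the higher genes, 10 were at least 2-fold lower at day 40 (11.2%, beside 0.737%) and 4 untreated (4.49%, beside 1.61%). Of the lower genes, 5 were at least 2-fold higher at day 40 (7.25%, beside 1.51%) and 6 untreated (8.7%, beside 1.45%). At least 2-fold higher in all 3 pairs were 15 genes: Camp, Ngp, Mpo, Ctsg, Stfa1, Stfa2, Stfa2l1, Stfa3, the stefin-like Cstdc4 and Cstdc5, Cxcl9, Cdkn2a, Adamdec1, Cck and Gm4841. At least 2-fold lower in all 3 were 10: Ccr2, F13a1, Adgre4, Clec4a1, Ptpro, Cd209a, Cybb, Klra2, Pld4 and Gm9733. Higher at days 28 and 40 but not untreated were 31, among them Cma1, Cma2, Cpa3, Mcpt4, Fcer1a, Ccl8, Grem1, Thbs2, Ctsk, Col7a1 and Krt5. A further 40 higher and 37 lower genes were past 2-fold in that direction at day 28 alone.

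Adamdec1, a metalloproteinase-like protein of macrophages and gut stroma, read 0.17 in WT and 2.23 in Ccr2KO cells (4.18-fold, second probe 2.29). Cck, the cholecystokinin gene, was 6.11-fold higher (−2.30 and 0.31), and Col6a5, a collagen VI chain, 4.07-fold (−4.76 and −2.73). Pianp, a ligand of the PILRA receptor, was 8.87-fold higher at day 28 (−2.70 and 0.45), with 0.19 untreated and 0.84 at day 40. Kif9, a kinesin, was the largest decrease after F13a1 and Ccr2 among genes above background on all 6 arrays (−2.74), but its 3 other probes gave 0.43, 0.11 and 0.50. The 10 largest decreases of named genes in that set also held Ctxn2 (−2.18), Gpr20 (−2.14), Wdfy2 (−2.10), Kcna6 (−1.95) and Mogat1 (−1.93), none with a second measured probe.

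Most of the largest differences were of genes above background on 1 of the 2 arrays. Mmp1b, a collagenase of the MMP1 family, was at least 30.9-fold higher in Ccr2KO cells, Dipk1c at least 27.1-fold, the hair cell gene Kncn at least 13.5-fold and Magea3 at least 7.04-fold, with no signal above background in WT. The nuclease gene Trex2 was 14-fold higher and Tmsb15l 6.13-fold, both above background on the 2 arrays. In the other direction, Rasgrf1, a Ras exchange factor, was at least 59.3-fold lower by its brightest probe, but a second probe gave 0.55. Lce1a1, a skin envelope gene, was at least 23.1-fold lower, the zinc finger gene Zfp558 at least 21.5-fold, Eras at least 15.5-fold, Npas3 at least 15-fold, Hpcal4 at least 12.2-fold, Lcn4 at least 9.8-fold, Keg1 at least 9.29-fold, the tachykinin gene Tac1 at least 8.37-fold and the homeobox gene Hoxc10 at least 7.67-fold. Mapk8ip2, above background on both arrays, was 9.6-fold lower. Second probes did not follow for Dpf1 (2.69 and −0.19), Sowaha (−3.48 and 0.14), Tuba3a (−3.00 and 0.12), Calcoco2 (2.10 and 0.15) or Tpmt (−1.63 and −0.04). Over the genes above background on both arrays, 20 of the higher ones had another measured probe, of which 10 were past 2-fold in the same direction, 8 were in that direction by less and 2 were not. Of 24 lower ones, 7 were past 2-fold, 12 were in that direction by less and 5 were not.

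Xist, the RNA that coats the inactive X chromosome of females, was above background on the Ccr2KO day 28 array alone and was at least 10.2-fold higher than in WT, with 3.88 from a second probe. The Y-linked genes Ddx3y (2.03 and 1.62), Eif2s3y (2.24 and 2.05) and Uty (−2.68 and −3.34) were above background on both arrays and 0.18 to 0.66 lower in the knockout. The sex of the pooled animals is not given in the labels, and its part in the differences described above was not tested.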

How the data were processed

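RNA of CD45-negative lung cells was hybridised to one-colour Cy3 Agilent arrays. Per the file headers, the authors' scanner files hold spot intensity from Feature Extraction 11.0.1.1, background-subtracted and detrended. The authors' deposited value table is the log2 of that intensity for 30574 probes (largest difference 5e-09), unscaled, with medians of 9.80 (WT) and 9.53 (Ccr2KO) at day 28, and the submitters' processing notes name R 2.15.1.

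Control spots and outlier spots (109 to 195 per array) were left out, repeated spots averaged, and the log2 intensity lowered by each array's 75th percentile (1159 and 975). Of 55681 probes, 27509 matched 1 RefSeq symbol (GRCm38.p6); array annotation is mm9, and no probe positions are printed. Each gene took the value of its brightest probe, if well above background on at least 1 of the 2 arrays; 4312 genes had several. Where the lower array was not above background, it counted at its own signal or at the array's lowest signal above background, whichever was higher, and the fold is written "at least", a nominal bound.

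With 1 array per group no test was made. Named genes are the 15 largest differences each way, list members past 2-fold, a fixed set and the neighbours of Ccr2. The 15 largest each way above background on all 6 arrays, other members and the genes named as unlisted were added after the values were seen. Members and lists were chosen with earlier results of these data known. Python 3.11.15, pandas 2.3.3, R 4.3.3 and limma 3.58.1 (normexp) were used. On simulated arrays the counting was tested.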

Additional observations from a re-analysis of the deposited data

Results flagged for a closer look

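Some of the genes selected for description differed one way at day 28 and the other way by at least 2-fold in another pair of arrays. None of these differences between pairs was tested, since each pair has 1 array per genotype.

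Marco was higher in Ccr2KO cells at day 28 (1.48) and lower in the untreated pair (−3.35), and Mcpt4 was higher at day 28 (2.42) and lower untreated (−1.03), with all 4 signals above background for both genes. Mcpt2 was higher at day 28 (2.17) and lower untreated (−2.20, with the untreated Ccr2KO signal taken at the array's lowest signal above background). Jchain was lower at day 28 (−1.09) and higher untreated (1.44), as was C7 (−1.03 and 1.07).

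Others were above background on 1 day 28 array. Taken at nominal bounds, Mmp1b was higher at day 28 (4.95) and lower untreated (−1.32), and Tac1 was lower at day 28 (−3.07) and higher untreated (3.85). Likewise, Hoxc10 was lower at day 28 (−2.94) and higher at day 40 (1.58), and Ttk was higher at day 28 (1.33) and lower at day 40 (−1.42). The olfactory receptor gene Olfr1243, above background on all 6 arrays, was higher at day 28 (2.36) and lower at day 40 (−1.77).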

How the results depend on the processing

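The main counts, 244 genes at least 2-fold higher and 297 lower in Ccr2KO cells, shrank where dim signals were damped or left out. They were 87 and 68 with normexp, 99 and 67 in the authors' deposited table scaled to its 75th percentile, 55 and 164 in that table as deposited, 126 and 119 for genes above background on both arrays, 89 and 69 for genes above background on all 6 arrays, and 457 and 554 with no filter. They were 681 and 653 at 1.5-fold and 65 and 144 at 4-fold. Quantile normalization, array medians, the mean of a gene's probes and dim arrays set to their lowest signal above background kept both counts within 1.5 times. The mast cell, basophil and eosinophil median of 1.97 was 1.68 with normexp, 1.29 in the deposited table scaled and 1.01 as deposited, where 9 of its genes are listed. The erythroid median of −0.60 was −0.42 with normexp and −0.85 as deposited. Differences of single genes also changed. Of the 110 named genes, 70 counted as moved with normexp, 16 with the mean of a gene's probes and 11 with quantile normalization. All 73 of those in the deposited table counted as moved when it was left as deposited. Only Rasgrf1 counted as reversed, to 0.55, when probes had to be above background on both arrays, since another probe then stood for it. Normexp was run on median spot signals, which was chosen after seeing the data because the planned mean signals are not in the files used; the set on all 6 arrays and the dim-signal floor were also added then. No paired analysis was possible because each group has 1 array and the labels give no replicate numbers. With 1 pooled RNA per group, no replicate could be left out, and signal over background limits the dim genes most.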

Other observations

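Stress-response lists that stood higher in untreated Ccr2KO cells were close to level or slightly lower at day 28. The p53 and senescence list had a median Ccr2KO minus WT difference of 1.11 untreated, −0.26 at day 28 and 0.01 at day 40. The immediate early genes gave 0.45, −0.13 and −0.07, the heat shock and ER stress genes 0.44, −0.07 and −0.09, and the NRF2 and metallothionein genes 0.43, −0.10 and 0.26. Of these lists, 8 of 16 p53 and senescence genes were at least 2-fold higher untreated and 1 of 16, Cdkn2a, at day 28. Each pair has 1 array per genotype, and the differences between pairs were not tested.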
